A study of Mus musculus with 34 samples.

Results

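The genes described here are 10 genes of glycolysis and of its direct control, Slc2a1, Hk1, Hk2, Pfkp, Pfkl, Pfkm, Pfkfb3, Aldoa, Pkm and Ldha, followed in mRNA sequencing libraries of whole mouse kidney. They were chosen by name for their place in the pathway, and all 10 were found among the 23509 genes of the count tables. Of those genes, 20069 had a read in at least 1 library and 15644 had enough reads to be tested, and all 10 glycolysis genes were among the tested ones. There were 34 libraries, each labelled as a separate mouse and harvested at postnatal day 28. The 12 UNT mice were C57BL6 animals without the knockout and without injection. The 11 PBS mice and the 11 RGLS4326 mice carried the Pkd2 knockout (Pkd2-KO, spelled Pdk2KO in the sample names) on the C57BL6 background, and both were injected under the skin at days 10, 11, 12 and 19, the PBS mice with vehicle and the RGLS4326 mice with 20 mg of oligonucleotide per kg. RGLS4326 is an inhibitor of miR-17, made as a short run of modified nucleotides that pairs with the microRNA's seed. The study's text writes the knockout as floxed Pkd2 alleles with Pkhd1/cre. As background, the Pkhd1 promoter is active mainly in collecting duct. PBS against UNT therefore compared cystic with healthy kidney, with genotype and injection changing together, and RGLS4326 against PBS compared treated with vehicle-injected cystic kidney.

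Glycolysis turns glucose into pyruvate in the cytosol. Glucose enters through carriers such as GLUT1 (Slc2a1), is trapped by hexokinases (Hk1, Hk2), is committed to the pathway by phosphofructokinase (Pfkp, Pfkl, Pfkm) under the control of the bifunctional enzyme PFKFB3, is split by aldolase (Aldoa), and leaves as pyruvate made by pyruvate kinase (Pkm) or as lactate made by lactate dehydrogenase (Ldha). The healthy proximal tubule burns fatty acids and makes glucose rather than consuming it, whereas distal nephron segments use more glycolysis, and cyst epithelium in polycystic kidney disease is known for aerobic glycolysis.

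RGLS4326 pairs with the seed of a microRNA, so that seed and the matches to it in the 10 genes are shown first. Mouse miR-17-5p (GRCm38, chr14:115043684-115043706, plus strand, sequence from RefSeq) is printed with its seed, bases 2 to 8, in capitals. Below it stand the matches to that seed found in the 3′ untranslated regions of the 10 genes, with the matched letters in capitals and 10 flanking bases on each side, read from the GENCODE transcripts of the same build.
mmu-miR-17-5p: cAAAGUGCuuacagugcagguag
Pfkp, chr13:6581372-6581379, minus strand: ttatttatcaGCACTTTAtggaagcaag
Pfkfb3, chr2:11473691-11473697, minus strand: ctgtttgtttGCACTTTtccttctttc
Pfkfb3, chr2:11473015-11473021, minus strand: atgcttcagaCACTTTAaagtcacctt
The motifs searched were GCACTTTA, GCACTTT and CACTTTA, on the transcript strand only and each site counted under its longest match. Pfkp held an 8-base match at base 81 of a 1692-base 3′ untranslated region, and Pfkfb3 held 2 matches of 7 bases in 3063 bases. One transcript was read per gene, the one with the longest annotated 3′ untranslated region, and in it the other 8 genes held no match. Among all tested genes with an annotated 3′ untranslated region, 3010 of 14186 (21.2%) held at least 1 match. Pfkp is also a gene of the study's own miR-17 target signature from cultured cells, which is a reason to look at it and not independent evidence. A match is a run of letters and was not tested as a binding site.

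Depth was high for all 10 genes. The libraries held 17603122 to 54981992 read pairs in genes, and the smallest count of any of the 10 genes in any library was 42, for Hk2 in a UNT mouse. Pkd2, the targeted gene, averaged 274 ± 34.4 CPM (read counts per 1000000 reads in genes, scaled with edgeR's TMM factors, SD, n = 12) in UNT and 160 ± 32.2 (n = 11) in PBS kidneys with no overlap between these groups, and 209.8 ± 23.8 (n = 11) in RGLS4326 kidneys. The files are numbered in 3 sets, with 3 or 4 mice of each group in each. In 4 of the 11 treated libraries, mice 5, 6, 7 and 11, 13.9% to 14.6% of uniquely aligned read pairs fell in no gene, against 5.82% to 10.9% in the other 7 treated libraries, 6.08% to 11.0% in PBS and 12.9% to 14.9% in UNT. Mice 5, 6 and 7 are all the treated mice of set 2. The treatment calls are therefore counted with and without these 4 libraries, a choice made after the data were seen. Markers of the proximal tubule (6 genes, summed) stood at 11494 to 15040 CPM in UNT, 1440.5 to 4053 CPM in PBS and 2389 to 4402 CPM in RGLS4326 kidneys, so the labelled tissue carried its defining markers in every group.

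In PBS against UNT kidney, 7 of the 10 genes were higher at an adjusted p under 0.05 (Slc2a1, Hk1, Hk2, Pfkp, Pfkl, Pfkfb3 and Pkm), 1 was lower (Pfkm), and Aldoa and Ldha did not pass. The test was edgeR's quasi-likelihood test with Benjamini-Hochberg adjustment over all tested genes, and by it 43.1% of all tested genes were higher and 39.0% lower in this comparison. The median log2 fold change of the 10 genes was 0.44, that of all tested genes 0.04. In RGLS4326 against PBS kidney, all 10 fold changes were negative and 7 genes were lower (Slc2a1, Hk1, Pfkp, Pfkl, Pfkfb3, Aldoa and Pkm), where 18.5% of all tested genes were lower. None of the 10 was higher by edgeR's test, also at an unadjusted p under 0.05 and by DESeq2, since every sign was negative, where 15.3% of all tested genes were higher. The median log2 fold change of the 10 genes was -0.27, against 0.0022 for all tested genes. In RGLS4326 against UNT kidney, 5 genes were higher (Slc2a1, Hk1, Hk2, Pfkp and Pfkfb3), where 40.8% of all tested genes were, and 2 were lower (Pfkm and Aldoa), where 36.9% were. The comparisons share the PBS and the UNT mice with each other, so they are set side by side and not counted as separate evidence.

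**Figure D1:**
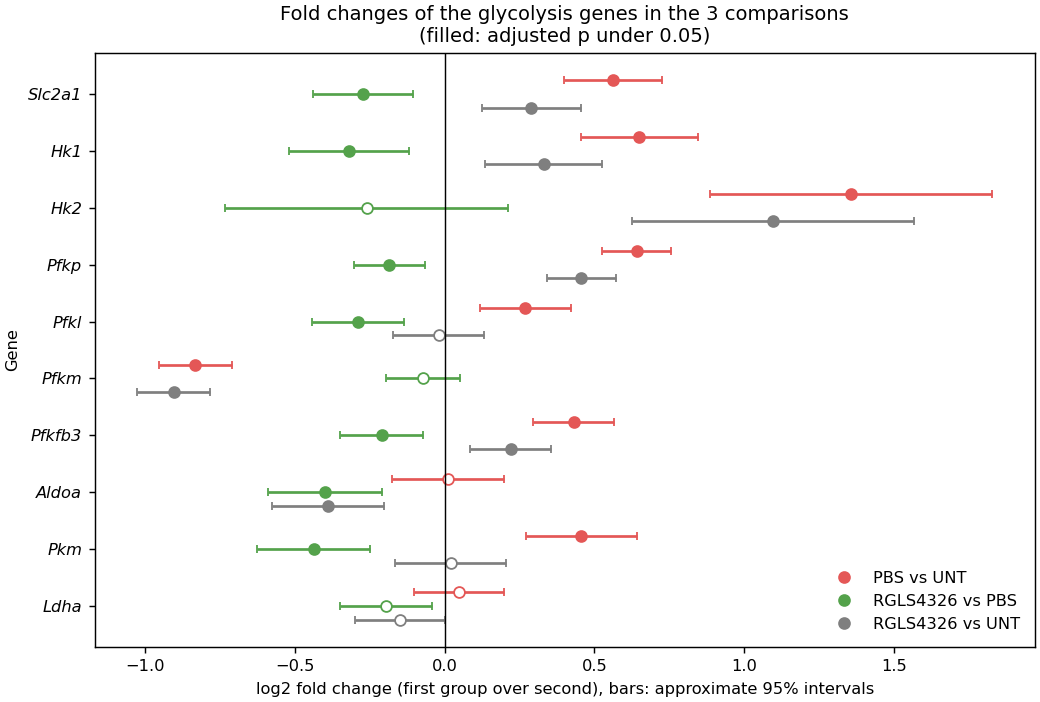
Log2 fold change of each glycolysis gene (vertical axis) in the 3 comparisons, with approximate 95% intervals from edgeR's standard errors and filled points for an adjusted p under 0.05. PBS against UNT lies right of 0 for 7 filled points and left of 0 for Pfkm at -0.83, and all 10 points of RGLS4326 against PBS lie left of 0, between -0.44 and -0.07.

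The treatment counts did not hold without the 4 libraries named above. Without them, none of the 10 genes passed in RGLS4326 against PBS by edgeR (0 of 10), all 10 signs were still negative, and the median log2 fold change was -0.15 against -0.0078 for all tested genes. All-gene calls fell too, from 5280 to 332. Leaving out any 1 library kept 7 or 8 of the 10 genes lower. Leaving out 4 also makes the treated group smaller. Leaving out another 4 was not tried, so the part of group size in this loss was not tested. The calls of PBS against UNT (7 higher, 1 lower) and of RGLS4326 against UNT (5 higher, 2 lower) had the same counts without the 4 libraries. Within the numbering sets, 9, 10 and 9 of the 10 signs were negative in sets 1, 2 and 3, and 0, 6 and 0 of the 10 genes passed, where 54, 4065 and 0 of all tested genes passed. At an unadjusted p under 0.05, 3421, 6361 and 2826 of all tested genes differed within these sets. With the share of read pairs in no gene as a covariate, 0 of the 10 genes passed in the treatment comparison, and 145 of all genes. Within sets 1, 2 and 3, PBS against UNT gave 7, 5 and 7 genes higher and 1 lower in each, where 5823, 5730 and 5303 of all tested genes were higher and 5585, 5659 and 4850 lower. RGLS4326 against UNT gave 5, 2 and 3 higher and 1, 5 and 1 lower, where 5628, 5396 and 4682 of all tested genes were higher and 5517, 4839 and 4061 lower. In set 2, where all treated libraries are among the 4, the log2 fold changes of Slc2a1, Hk1 and Pfkfb3 against UNT were 0.06, -0.013 and -0.022. With the same covariate, PBS against UNT gave 3 genes higher (Hk2, Pfkp and Pfkfb3) and 4 lower (Pfkl, Pfkm, Aldoa and Ldha), where 5535 of all tested genes were higher and 4848 lower, and RGLS4326 against UNT gave 2 higher (Hk2 and Pfkp) and 5 lower (Pfkl, Pfkm, Aldoa, Pkm and Ldha), where 6048 were higher and 5444 lower. Because that share did not overlap between PBS and UNT, it and the disease cannot be told apart in the comparison with UNT.

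**Figure D2:**
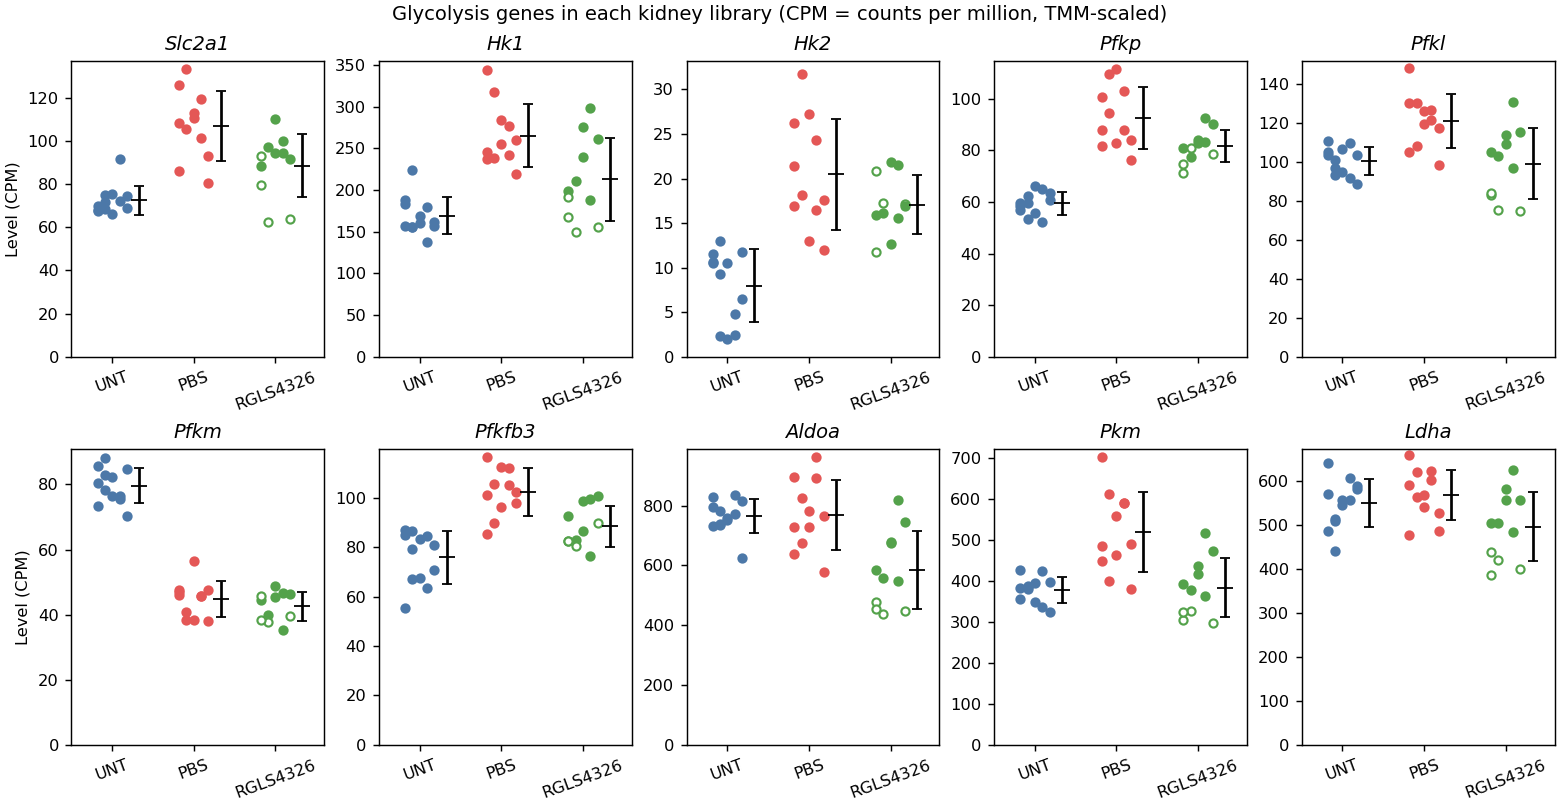
Level of each glycolysis gene in CPM (vertical axes, starting at 0) in every UNT, PBS and RGLS4326 kidney, with black bars for the mean and SD of each group. Open green points are the 4 treated libraries with the most read pairs in no gene, and they are the 4 lowest treated points for Pfkl, Aldoa, Pkm and Ldha.

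Glucose uptake itself was not measured. Slc2a1 (chr4:119108711-119137983 in GRCm38, plus strand) is the gene of the glucose carrier GLUT1. It stood at 66.3 to 91.7 CPM in UNT (median 70.9), at 80.7 to 133 CPM in PBS (median 108.5) and at 62.3 to 110 CPM in RGLS4326 kidneys (median 93.2). Every PBS kidney lay above the UNT mean, although 1 high UNT kidney kept the ranges overlapping. The log2 fold change was 0.56 in PBS against UNT (SE 0.084, edgeR adjusted p = 1.71e-07), -0.27 in RGLS4326 against PBS (SE 0.085, edgeR adjusted p = 0.0166) and 0.29 in RGLS4326 against UNT (SE 0.084, edgeR adjusted p = 0.00214). Without the 4 treated libraries the treatment value was -0.15 (edgeR adjusted p = 0.229). With the share of read pairs in no gene as a covariate, Slc2a1 no longer passed against UNT, at 0.15 in PBS (edgeR adjusted p = 0.233) and 0.04 in RGLS4326 kidneys (edgeR adjusted p = 0.682). In whole kidney, a change in the number of cells that make an mRNA and a change in the mRNA per cell cannot be told apart, here and for each gene that follows.

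The hexokinases phosphorylate glucose. Hk1 (chr10:62268855-62379908, minus strand), the constitutive form bound to mitochondria, stood at 137 to 224 CPM in UNT (median 161), at 219 to 344 CPM in PBS (median 255) and at 149.9 to 298 CPM in RGLS4326 kidneys (median 199). All but the lowest PBS kidney lay above the highest UNT kidney, and the treated kidneys spread from the UNT range into the PBS range. The log2 fold change was 0.65 in PBS against UNT (SE 0.10, edgeR adjusted p = 3.26e-07) and -0.32 in RGLS4326 against PBS (SE 0.10, edgeR adjusted p = 0.0182), and the latter was -0.15 (edgeR adjusted p = 0.318) without the 4 treated libraries. In RGLS4326 against UNT it was 0.33 (SE 0.10, edgeR adjusted p = 0.00321). With the same covariate Hk1 did not pass against UNT either, at 0.13 in PBS (edgeR adjusted p = 0.357) and -0.0074 in RGLS4326 kidneys (edgeR adjusted p = 0.948). Hk2 (chr6:82725025-82774454, minus strand), the inducible form, was low in all kidneys and rose the most of the 10 genes in PBS against UNT. It stood at 2.0 to 13 CPM in UNT (median 9.93), at 12.0 to 31.7 CPM in PBS (median 18.2) and at 11.8 to 21.9 CPM in RGLS4326 kidneys (median 16.9). The UNT kidneys were uneven, with 3 mice at 2.0, 2.4 and 2.4 CPM and 7 mice at 9.33 CPM or more, and the PBS kidneys overlapped only the upper end of that range. The log2 fold change was 1.36 in PBS against UNT (SE 0.24, edgeR adjusted p = 3.97e-06) and 1.1 in RGLS4326 against UNT (SE 0.24, edgeR adjusted p = 0.000103). Under the other settings tried, the log2 fold change ranged from 0.80 to 1.86 in the former and 0.49 to 1.71 in the latter, and passed in each. In RGLS4326 against PBS it was -0.26, with an approximate 95% interval of -0.73 to 0.21 (edgeR adjusted p = 0.403), it was -0.24 without the 4 treated libraries (edgeR adjusted p = 0.6), and it was -0.70, -0.31 and 0.20 within sets 1, 2 and 3. The interval allows either a fall of the size seen for Hk1 or no difference.

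Phosphofructokinase catalyzes the committed step, and its genes moved apart. Pfkp (chr13:6579768-6648777, minus strand), the platelet form, stood at 52.2 to 66.3 CPM in UNT (median 59.7), at 76.1 to 112 CPM in PBS (median 88) and at 71.4 to 92.5 CPM in RGLS4326 kidneys (median 81.0). Both knockout groups lay wholly above UNT. Pfkm (chr15:98092589-98132451, plus strand), the muscle form, went the other way, at 70.5 to 88.2 CPM in UNT (median 79.5), 38.1 to 56.5 CPM in PBS (median 45.8) and 35.5 to 48.7 CPM in RGLS4326 kidneys (median 44.4). Both knockout groups lay wholly below UNT. Pfkp and Pfkm were the 2 genes of the 10 whose groups did not overlap, 1 in each direction, in PBS against UNT, where 22.7% of all tested genes lay wholly higher and 19.8% wholly lower. The same 2 genes did not overlap between RGLS4326 and UNT, where the shares of all tested genes were 20.7% and 16.1%. Between RGLS4326 and PBS all 10 genes overlapped, as did nearly all tested genes, with 0.0447% wholly higher and 0.0192% wholly lower.

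For Pfkp the log2 fold change was 0.64 in PBS against UNT (SE 0.059, edgeR adjusted p = 3.02e-12) and -0.18 in RGLS4326 against PBS (SE 0.060, edgeR adjusted p = 0.0201). All 11 treated kidneys lay below the PBS mean of Pfkp, the gene with the 8-base seed match printed above, and without the 4 treated libraries the value was -0.13 (edgeR adjusted p = 0.2097). Against UNT the treated kidneys were higher by 0.46 (SE 0.059, edgeR adjusted p = 1.14e-08). For Pfkm the log2 fold change was -0.83 in PBS against UNT (SE 0.062, edgeR adjusted p = 1.01e-14), and in RGLS4326 against PBS it was -0.07 with an approximate 95% interval of -0.19 to 0.05 (edgeR adjusted p = 0.368), and -0.03 without the 4 treated libraries (edgeR adjusted p = 0.818). Against UNT the treated kidneys stood at -0.90 (SE 0.062, edgeR adjusted p = 1.52e-15). Pfkl (chr10:77986947-78010083, minus strand), the liver form, stood at 89.0 to 111 CPM in UNT (median 102), at 98.7 to 148 CPM in PBS (median 122) and at 75 to 131 CPM in RGLS4326 kidneys (median 103). The groups overlapped, and the 4 lowest treated kidneys, at 75 to 84.2 CPM, were the 4 libraries named above. Its log2 fold change was 0.27 in PBS against UNT (SE 0.077, edgeR adjusted p = 0.00183), -0.29 in RGLS4326 against PBS (SE 0.079, edgeR adjusted p = 0.00852) and -0.02 in RGLS4326 against UNT (SE 0.077, edgeR adjusted p = 0.828). Without the 4 libraries the treatment value was -0.13 (edgeR adjusted p = 0.212). The PBS value was 0.09 within set 2 (edgeR adjusted p = 0.341) and -0.22 with the covariate (edgeR adjusted p = 0.0115). The value in RGLS4326 against UNT passed at 0.28 when scaled by library size alone (edgeR adjusted p = 0.00058), at -0.33 with the covariate (edgeR adjusted p = 7.68e-06) and at -0.39 within set 2 (edgeR adjusted p = 0.00251).

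Pfkfb3 (chr2:11471433-11554077, minus strand) encodes the kinase-dominant enzyme that makes fructose 2,6-bisphosphate, the activator of phosphofructokinase. It stood at 55.3 to 86.9 CPM in UNT (median 80.0), at 85.1 to 117 CPM in PBS (median 102) and at 76.4 to 100 CPM in RGLS4326 kidneys (median 86.3). All 11 treated kidneys lay below the PBS mean and above the UNT mean. The log2 fold change was 0.43 in PBS against UNT (SE 0.069, edgeR adjusted p = 6.94e-07), -0.21 in RGLS4326 against PBS (SE 0.071, edgeR adjusted p = 0.023) and 0.22 in RGLS4326 against UNT (SE 0.069, edgeR adjusted p = 0.00433), the last being 0.15 with the covariate (edgeR adjusted p = 0.114). The treatment value was -0.17 without the 4 treated libraries (edgeR adjusted p = 0.195). Both genes with a seed match, Pfkp and Pfkfb3, were lower in the treated kidneys with all libraries, as were 5 of the 8 genes without one and 18.5% of all tested genes, and none of the 10 passed by edgeR without the 4 (0 of 10).

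Aldoa (chr7:126795234-126800751, minus strand), the aldolase of muscle and most other tissues, stood at 625 to 834 CPM in UNT (median 766), at 577 to 962 CPM in PBS (median 765) and at 437 to 818 CPM in RGLS4326 kidneys (median 559). PBS kidneys spread on both sides of the UNT range, with a log2 fold change of 0.01 and an approximate 95% interval of -0.18 to 0.20 (edgeR adjusted p = 0.926), which was 0.30 when scaled by library size alone (edgeR adjusted p = 0.00261) and -0.59 with the covariate (edgeR adjusted p = 6.16e-07). The treated kidneys were lower than both, at -0.40 against PBS (SE 0.098, edgeR adjusted p = 0.00505) and -0.39 against UNT (SE 0.096, edgeR adjusted p = 0.000431), and 10 of 11 lay below the PBS mean. The 4 treated libraries named above stood at 437 to 478 CPM and the other 7 at 548 to 818 CPM. Without the 4, the log2 fold change was -0.22 against PBS (edgeR adjusted p = 0.128) and -0.21 against UNT (edgeR adjusted p = 0.0317). Scaled by library size alone, the value against UNT was -0.10 (edgeR adjusted p = 0.324). It also did not pass by edgeR within set 1 or within set 3.

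Pkm (chr9:59656368-59679375, plus strand) encodes pyruvate kinase M1 and M2, which the gene-level counts do not separate. It stood at 325 to 426 CPM in UNT (median 385), at 379.9 to 702 CPM in PBS (median 491) and at 297 to 518 CPM in RGLS4326 kidneys (median 378). All 11 PBS kidneys lay above the UNT mean and all 11 treated kidneys below the PBS mean. The log2 fold change was 0.46 in PBS against UNT (SE 0.094, edgeR adjusted p = 3.99e-05), -0.44 in RGLS4326 against PBS (SE 0.096, edgeR adjusted p = 0.003), the lowest treatment value of the 10 genes, and 0.02 in RGLS4326 against UNT (SE 0.094, edgeR adjusted p = 0.852). The 4 treated libraries stood at 297 to 326 CPM and the other 7 at 363 to 518 CPM, and without the 4 the treatment value was -0.29 (edgeR adjusted p = 0.0813). Within sets 1, 2 and 3 it was -0.36, -0.54 and -0.49, and it passed in set 2 (edgeR adjusted p = 0.0148). The PBS value was 0.15 within set 2 (edgeR adjusted p = 0.274) and -0.060 with the covariate (edgeR adjusted p = 0.646). Against UNT the treated value passed at 0.31 when scaled by library size alone (edgeR adjusted p = 0.00216) and at -0.30 with the covariate (edgeR adjusted p = 0.00204). Within set 2 it was -0.39.

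Ldha (chr7:46841475-46855627, plus strand), the subunit that favors making lactate from pyruvate, stood at 441 to 642 CPM in UNT (median 558), at 478 to 660 CPM in PBS (median 569) and at 387 to 626 CPM in RGLS4326 kidneys (median 506). The 3 ranges overlapped widely. The log2 fold change was 0.05 in PBS against UNT with an approximate 95% interval of -0.10 to 0.20 (edgeR adjusted p = 0.565), against 0.34 when scaled by library size alone (edgeR adjusted p = 2.56e-05) and -0.40 with the covariate (edgeR adjusted p = 5.85e-05). It was -0.20 in RGLS4326 against PBS with an interval of -0.35 to -0.04 (edgeR adjusted p = 0.0504). This treatment value lay at the threshold, passed under 7 of the alternatives tried and in 10 of the 34 fits that left out 1 library (without treated mouse 3, 4, 8 or 10, PBS mouse 5, 6 or 10, or UNT mouse 1, 10 or 12, edgeR adjusted p from 0.0177 to 0.0499), and was -0.06 without the 4 treated libraries (edgeR adjusted p = 0.616). In RGLS4326 against UNT it was -0.15 (SE 0.077, edgeR adjusted p = 0.0774), which passed under 7 of the alternatives tried and without treated mouse 4 or 8, PBS mouse 9 or UNT mouse 12 (edgeR adjusted p from 0.0253 to 0.044), and which turned to 0.15 when scaled by library size alone (edgeR adjusted p = 0.0429).

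**Figure D3:**
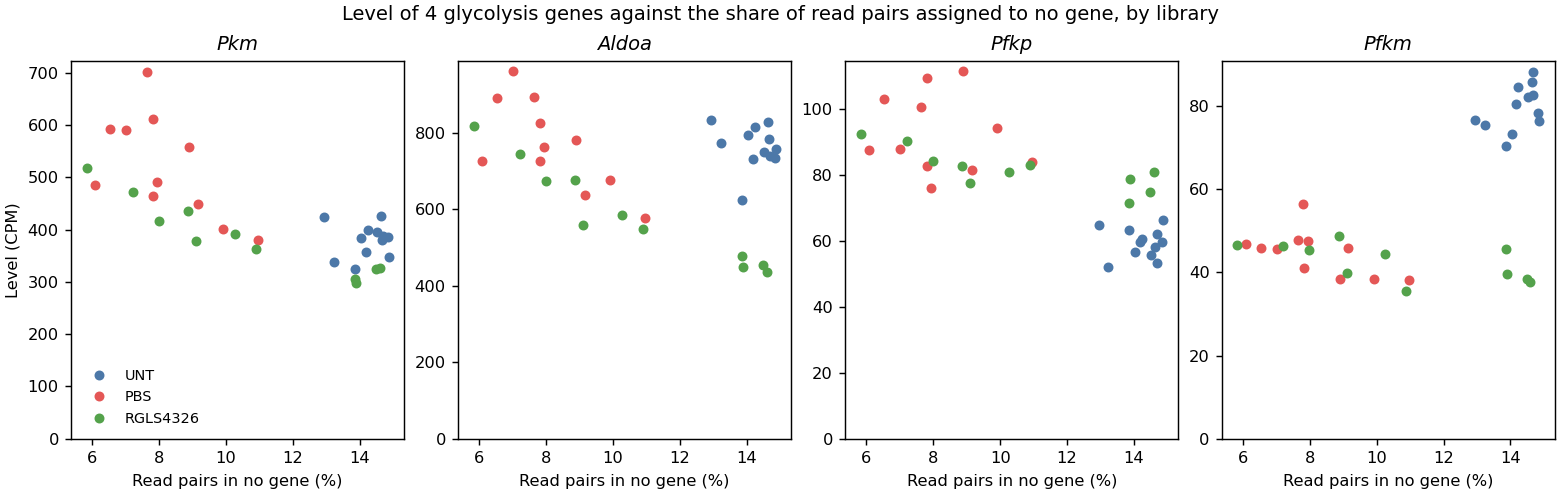
Level in CPM (vertical axes, starting at 0) of Pkm, Aldoa, Pfkp and Pfkm against the share of uniquely aligned read pairs that fell in no gene (horizontal axes, %) in each library, colored by group. PBS libraries lie at 6.08% to 11.0% and UNT libraries at 12.9% to 14.9%, and the 4 treated libraries at 13.9% to 14.6% hold the lowest treated levels of Pkm and Aldoa, whereas Pfkm separates UNT from both knockout groups.

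The rest of the pathway was read from a list of 46 further genes. Of these genes of the glucose carrier families, glycolysis, lactate transport and gluconeogenesis, Tigar and Eno1b were not analysed here, 1 had too few reads, and 43 were tested. In PBS against UNT kidney 9 were higher and 28 lower, with a median log2 fold change of -0.54, where 43.1% of all tested genes were higher and 39.0% lower. Among the genes that passed, the 6 largest rises were Hk3 (3.28), a hexokinase of blood cells, Slc16a3 (2.52), which encodes the lactate exporter MCT4, Eno2 (1.74), the neuronal enolase, Hkdc1 (1.62), a hexokinase relative, Slc2a3 (1.07), the carrier GLUT3, and Pck2 (0.67), the mitochondrial form of PEPCK. Among the largest falls were G6pc (-3.28), Pck1 (-3.21), Fbp1 (-2.39) and Pcx (-2.25), all of gluconeogenesis, and the luminal glucose carrier Slc5a2 (-2.79). Of 9 genes of the glucose carrier families, not all of them genes of glucose entry, 1 was higher and 7 lower. Of 7 genes of gluconeogenesis 1 was higher and 5 lower. Of 15 genes from the isomerase to enolase and of other isozymes, 2 were higher (Eno2 and, at 0.15, Bpgm) and 12 lower. Named after their values were seen, 5 of the lower genes had log2 fold changes of -0.40 for Tpi1, -0.54 for Gapdh, -0.73 for Pgk1, -0.21 for Pgam1 and -0.46 for Eno1. Eno1 has a near-identical copy, Eno1b, and only uniquely aligned reads were counted, so its level is uncertain.

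In RGLS4326 against PBS kidney, 7 of the 43 genes were higher and 9 lower, with a median log2 fold change of -0.07, where 15.3% of all tested genes were higher and 18.5% lower, shares near those of the list. Among the genes that passed, the 6 largest rises were G6pc (1.01), Slc5a2 (0.61), Slc2a2 (0.55), which encodes the tubular exit carrier GLUT2, Pfkfb2 (0.45), Fbp1 (0.43) and Slc2a12 (0.41). The 6 largest falls were Slc16a3 (-0.49), Slc2a8 (-0.33), Hkdc1 (-0.33), G6pc3 (-0.28), Gpi1 (-0.26), the isomerase of the second step, and Pfkfb4 (-0.22). Without the 4 treated libraries 1 of the 43 was higher (Slc5a2) and 0 were lower by edgeR, as 332 of all tested genes passed and 4121 did at an unadjusted p under 0.05. In RGLS4326 against UNT kidney 8 of the 43 were higher and 30 lower, where 40.8% of all tested genes were higher and 36.9% lower.

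**Figure D4:**
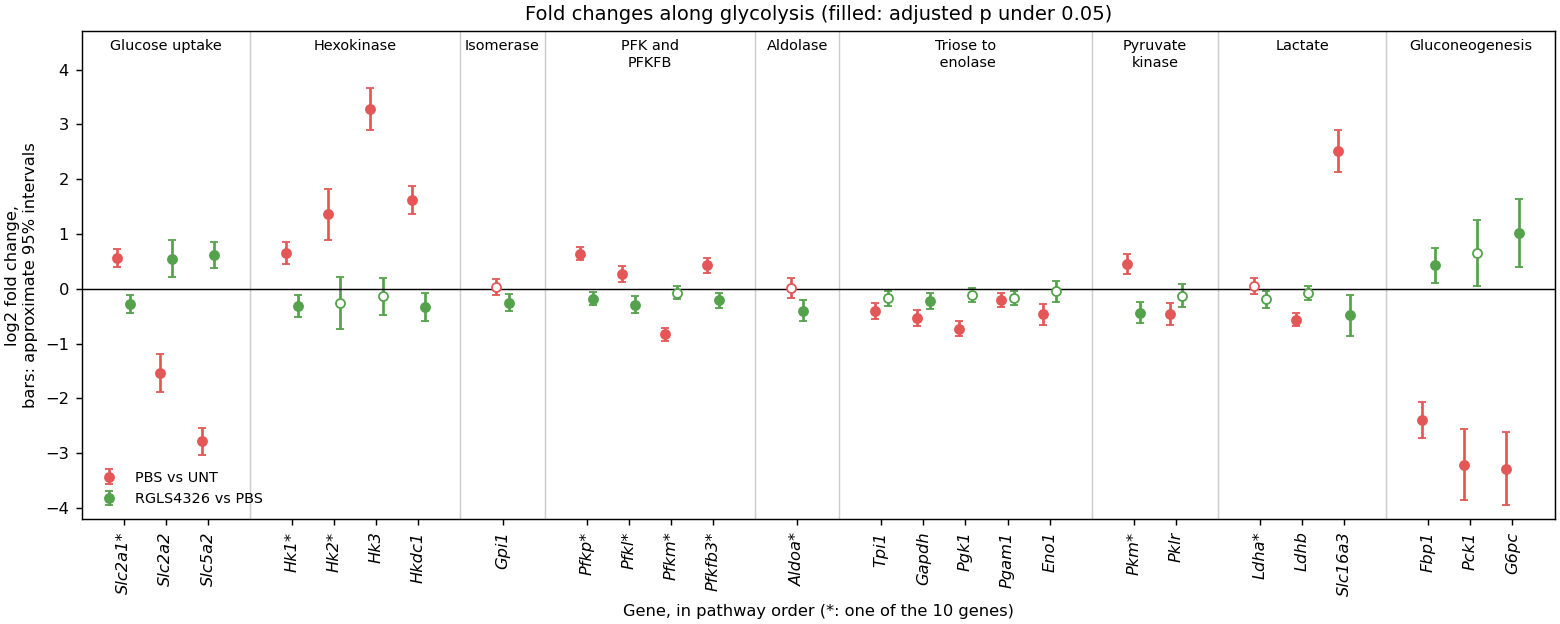
Log2 fold change (vertical axis, with approximate 95% intervals) of the 10 glycolysis genes, marked with asterisks, and of other genes, in pathway order, in PBS against UNT and in RGLS4326 against PBS. Filled points passed an adjusted p under 0.05. Tpi1, Gapdh, Pgk1, Pgam1 and Eno1 lie below 0 in PBS against UNT, and G6pc lies at -3.28 there and at 1.01 in RGLS4326 against PBS.

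Several of the 10 genes are 1 of a set of isozymes, and their balance was read per length, as CPM per kilobase of the longest protein-coding transcript and as a share of the summed level of the set in each kidney. These shares are descriptions with no test. Pfkm made up 40.1% ± 2.04 of the phosphofructokinase sum in UNT (SD, n = 12) and 22.1% ± 2.79 in PBS kidneys (n = 11). Pfkp held 20.8% ± 1.42 and 31.8% ± 3.02 in the same groups, and Pfkl 39.1% ± 1.52 and 46.1% ± 1.72. In RGLS4326 kidneys Pfkm held 24.3% ± 2.03 and Pfkp 32.4% ± 2.41 (n = 11), close to the PBS shares, and without the 4 treated libraries 23.3% ± 1.41 and 31.3% ± 1.51 (n = 7). Pfkl held 43.3% ± 3.21 in RGLS4326 kidneys, between the UNT and PBS means, with a range of 38.1% to 47.7% that overlapped both groups, and a mean of 45.4% (44.5% to 47.7%, n = 7) without the 4. The ranges of UNT and PBS did not overlap for any of the 3 genes. Taking the merged length of all annotated exons in place of the transcript gave Pfkm 54.96% and 34.8%, and Pfkp 10.3% and 18.0%, in UNT and PBS, so that the level of each share depended on the length used.

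Slc2a1 held 47.8% ± 6.82 of the GLUT1 and GLUT2 sum in UNT, 79.6% ± 7.90 in PBS and 68.3% ± 2.77 in RGLS4326 kidneys (69.7% ± 1.06 without the 4 treated libraries). Ldha held 22.6% ± 1.51 of the lactate dehydrogenase sum in UNT, 31.0% ± 2.04 in PBS and 29.2% ± 1.15 in RGLS4326 kidneys (29.8% ± 0.549 without the 4), with Ldhb the larger part throughout. Pkm held 89.7% ± 1.79 of the pyruvate kinase sum in UNT and 94.1% ± 2.04 in PBS, the remainder being Pklr. Hk1 held 96.4% ± 1.85 of the Hk1 and Hk2 sum in UNT and 94.4% ± 1.36 in PBS kidneys, so that Hk2 stayed a small part despite its rise.

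**Figure D5:**
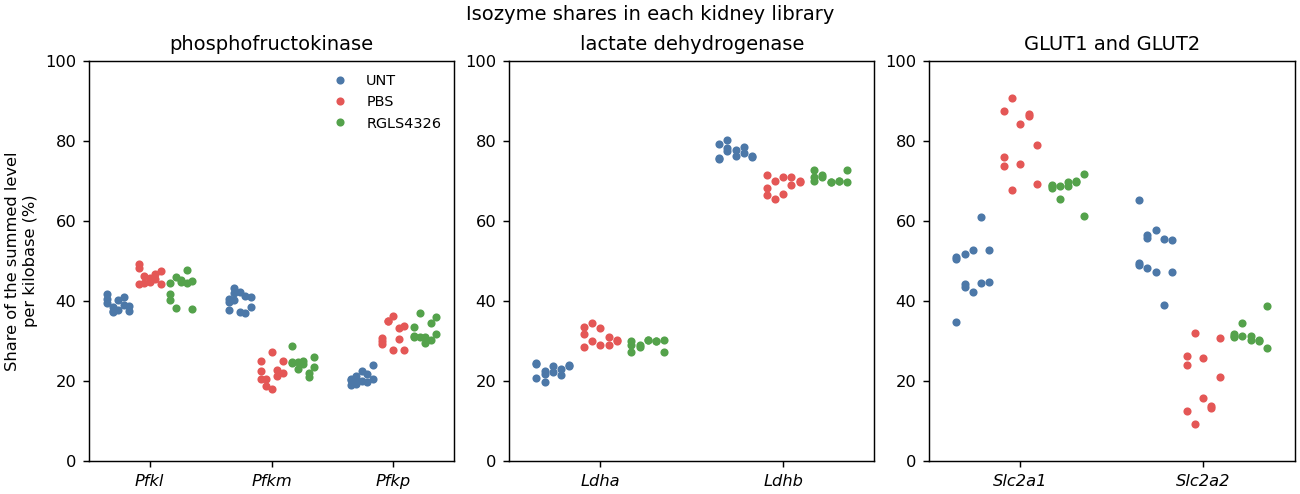
Share (%) of each isozyme in the summed level per kilobase of its set, 1 point per kidney, for phosphofructokinase, lactate dehydrogenase and the carriers GLUT1 and GLUT2. The mean share of Pfkm is 40.1% in UNT and 22.1% in PBS, that of Pfkp 20.8% and 31.8%, and the share of Slc2a1 in RGLS4326 kidneys has a mean between those of UNT and PBS.

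Markers of other cell types moved with these results. In PBS against UNT kidney all 6 proximal tubule, all 3 thick ascending limb, all 3 distal convoluted tubule, all 3 podocyte and 3 of 4 intercalated cell markers were lower, where 39.0% of all tested genes were. All 3 measured macrophage markers, all 4 fibroblast and myofibroblast markers, all 4 markers of injured tubule, all 4 principal cell markers and all 4 proliferation markers were higher, where 43.1% of all tested genes were, and 2 of 4 endothelial markers were higher and 2 lower. Summed macrophage markers stood at 66.2 to 118 CPM in UNT, 304 to 781 CPM in PBS and 275 to 532 CPM in RGLS4326 kidneys. Summed principal cell markers stood at 501 to 834 CPM, 787 to 2171 CPM and 426 to 1913.5 CPM in the same order, and summed markers of injured tubule at 5.06 to 10.2 CPM, 746 to 1812 CPM and 391 to 1370 CPM. In RGLS4326 against PBS kidney, 3 of 6 proximal tubule, 2 of 3 thick ascending limb, 3 of 3 podocyte, 3 of 4 endothelial and 1 of 3 distal convoluted tubule markers were higher, where 15.3% of all tested genes were. In the same comparison 2 of 4 principal cell, 2 of 3 macrophage, 1 of 4 injured tubule, 1 of 4 intercalated cell and 1 of 2 tested skeletal muscle markers were lower, where 18.5% of all tested genes were. Without the 4 treated libraries, 1 proximal tubule and 2 endothelial markers were higher and 1 intercalated cell marker lower, and no other marker passed. Among the treated kidneys, the 4 libraries with low Pkm and Aldoa also had the lowest summed macrophage markers, at 275 to 384 CPM against 385 to 532 CPM in the other 7, and the lowest endothelial markers, at 359 to 377 CPM against 394 to 453 CPM. Their summed principal cell markers stood at 426 to 844 CPM against 683 to 1913.5 CPM. The part of these cell types in the levels of the 10 genes was not tested. Skeletal muscle markers were near 0, at 1.03 to 4.29 CPM summed over 4 genes in any kidney, with the median of Ckm under 0.1 CPM in each group, beside 437 CPM or more of Aldoa.

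For 6 of the 10 genes some annotated exon bases are shared with another gene, from 0.859% for Aldoa to 15.3% for Pkm and 10.8% for Pfkm, and reads there could have gone to neither. The strand setting of the counting is not given in the sources used here.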

How the data were processed

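Polyadenylated RNA of whole kidneys was made into stranded mRNA libraries, 1 per mouse, and sequenced as read pairs. Per the labels and the study's methods, the authors trimmed reads with Trim Galore, aligned them to GRCm38 with STAR, and counted uniquely aligned read pairs per gene with HTSeq (0.6.1). The deposited values are raw counts, 1 table per mouse. The gene annotation and strand setting are not given in the sources used here. Groups came from the sample labels.

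Counts were scaled with TMM factors to CPM (per 1000000 reads in genes), filtered with filterByExpr and tested with edgeR (4.0.16) quasi-likelihood fits over all 34 libraries and 3 groups, and p-values were adjusted over all tested genes. The 95% intervals are normal approximations from the standard errors. Rows that name no gene stayed out of totals. Of uniquely aligned read pairs, 5.82% to 14.9% fell in no gene. The script was tested on simulated data for PBS against UNT: of 99 genes changed by 0.4 on the log2 scale 58 were recovered, and 91 of 99 changed by 0.8, with 10 false among 159 calls over 15580 genes. In the real comparison 12841 of 15644 tested genes passed, and recovery and scaling with that many changes were not tested. Positions, lengths and 3′ untranslated regions came from GENCODE on GRCm38. Alternatives were other scalings, no filter, DESeq2 (1.42.0), covariates, single numbering sets, a replicate block, and leaving out libraries. No pair of libraries was identical. p-values set the difference between groups against the spread between mice. The genes, the pathway list and the markers were chosen with earlier results of these data known. All 10 genes are described in every comparison, and of the pathway list up to 6 genes per direction, by size, apart from results that are not reported here. Sex was read from the counts for use as a covariate, with 6 mice called male in UNT, 6 in PBS and 5 in RGLS4326. The call was unclear for 1 library.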

Additional observations from a re-analysis of the deposited data

How the results depend on the processing

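Of 1410 single-gene values under other settings (10 genes, 3 comparisons), 1296 had the direction and the side of the threshold of the main value, 42 no longer passed, 33 newly passed and 39 changed sign; of the 1020 that left out 1 library, 995, 0, 14 and 11 did. With the share of read pairs in no gene as a covariate, PBS vs UNT had 3 genes higher and 4 lower, with Slc2a1 at 0.15 and Hk1 at 0.13, no longer passing, Pfkl at -0.22, Aldoa at -0.59, Pkm at -0.060 and Ldha at -0.40; RGLS4326 vs PBS had 0 lower and Pfkm at 0.0073; RGLS4326 vs UNT had 2 higher and 5 lower, with Hk1 at -0.0074 and Pkm at -0.30. Without the 4 treated libraries highest in that share, a choice made after seeing the data, RGLS4326 vs PBS had 0 genes lower, and Pfkl in RGLS4326 vs UNT was 0.14. In set 1 alone RGLS4326 vs PBS had 0 lower with Pfkm at 0.076, RGLS4326 vs UNT had 1 lower with Pfkl at 0.13, and Aldoa in PBS vs UNT was -0.014. In set 2 alone RGLS4326 vs UNT had 2 higher and 5 lower, with Hk1 at -0.013, Pfkfb3 at -0.022 and Pkm at -0.39, and in PBS vs UNT Aldoa was -0.23 and Ldha -0.043. In set 3 alone RGLS4326 vs PBS had 0 lower with Hk2 at 0.20, and RGLS4326 vs UNT had 3 higher and 1 lower, with Pfkl at 0.023. Scaling by library size alone moved the median of all genes by 0.29 in PBS vs UNT and 0.30 in RGLS4326 vs UNT, gave the former 9 genes higher, with Aldoa at 0.30 and Ldha at 0.34 newly passing, and gave the latter 8 higher and 1 lower, with Pfkl at 0.28 and Ldha at 0.15. Aldoa in PBS vs UNT was -0.024 with RLE scaling and with DESeq2 and -0.035 with no filter. Pkm in RGLS4326 vs UNT was -0.016 with RLE scaling and with DESeq2, -0.012 with no filter and -0.0036 with the numbering set as a covariate. Leaving out 1 library, Aldoa in PBS vs UNT ranged from -0.059 to 0.046, Pfkl in RGLS4326 vs UNT from -0.065 to 0.016 and Pkm there from -0.031 to 0.053. The cause of these changes was not tested.

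Mice with the same replicate number were not treated as pairs in the main fit. Same-numbered mice had correlations of -0.329 to 0.412, over 0.1 in 1, 5 and 3 of 11 pairs. Mice with different numbers were not compared, so these values cannot show whether the numbers pair the mice. With a replicate block, Aldoa in PBS vs UNT was -0.011, Ldha passed in RGLS4326 vs PBS (-0.20) and in RGLS4326 vs UNT (-0.18), and calls over all genes went from 12841, 5280 and 12157 to 12781, 5098 and 12162.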
